A study of Mus musculus with 11 samples.

Results

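The general transcription factors were examined as targets of RFX proteins in mouse ependymal cells, which carry many motile cilia and form the wall of the brain ventricles. The members are the protein-coding genes of the RefSeq annotation of GRCm38 whose symbol starts with Gtf2 or Gtf3, or is Taf followed by a number. This gave 47 of 21887 protein-coding genes on assembled chromosomes, 16 Gtf2 genes, 7 Gtf3 genes and 24 Taf genes, spread over 19 chromosomes. A gene was called bound when the summit of a reproducible peak, the point of strongest signal within it, lay within 1 kb of the gene's annotated start or end.

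Chromatin immunoprecipitation with sequencing (ChIP-seq) was done with an antibody to RFX1, to RFX2 or to RFX3. The groups are 2 ChIP samples of each RFX, 2 input chromatin samples each for RFX1 and RFX2, and 1 input sample for RFX3. All 11 samples came from wild-type OF1 mice. The ependymal cells had matured ex vivo after dissection of the lateral brain walls, a tissue labelled embryonic with the age P0. The 2 RFX2 ChIP samples used different lots of 1 antibody. One merged list of reproducible peaks per RFX was used, holding 7440 RFX1 peaks, 1250 RFX2 peaks and 9318 RFX3 peaks. Because replicates were merged before deposit, the values have no replicate error. Read depth is unknown, and the lack of a call at a gene does not show that the factor was absent. The lists hold no expression values, so the identity of the cells was not checked against marker genes.

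General transcription factors place RNA polymerases at the starts of genes. For RNA polymerase II, TFIID, built from the TATA-binding protein and its associated factors (TAFs), recognises the core promoter, and TFIIA, TFIIB, TFIIE, TFIIF and TFIIH complete the initiation complex. TFIIIC recognises the internal promoter boxes of tRNA genes and brings TFIIIB and RNA polymerase III to them, TFIIIA does this at 5S rRNA genes, and a separate set of TAFs acts at rRNA genes with RNA polymerase I. RFX factors are winged-helix proteins that bind the X-box, an inverted repeat, and are known as regulators of ciliary genes.

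RFX peaks lay at a minority of these genes, and genes of TFIIIC made up the largest group among those bound, with 4 of 11, but 1 of 5 when genes bound only through peaks shared with a neighbour were left out. RFX1 was bound at 9 of the 47 members (19.1%, 95% Clopper-Pearson interval 9.15 to 33.3), against 9.05% of all protein-coding genes. RFX2 was bound at 2 (4.26%, interval 0.52 to 14.5), against 2.08%. RFX3 was bound at 10 (21.3%, interval 10.7 to 35.7), against 7.94%. At least 1 RFX was bound at 11 members (23.4%, interval 12.3 to 38.0), against 10.1% of all genes, and RFX1 and RFX3 together were bound at 8 (17.0%), against 6.89%. Each share of the members was thus higher than that of all genes, and the RFX2 share rests on 2 genes. These are descriptions, since no test of the set was made, and the intervals cover the counting of genes alone.

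The 11 bound members were Gtf3c1, Gtf3c4, Gtf3c5 and Gtf3c6 of TFIIIC, Gtf2b, Gtf2e2, Gtf2f1, Taf5, Taf11, Taf6l and Taf1a. All 3 factors were bound at Gtf3c1 and Gtf3c6, RFX1 and RFX3 at 6 members, RFX1 alone at Taf6l, and RFX3 alone at Gtf2b and Taf5. Of the members with RFX1, 88.9% also had RFX3, against 76.1% of all RFX1 genes. Of the members with RFX3, 80.0% also had RFX1, against 86.7% of all RFX3 genes. No member of TFIIA (3 genes), TFIIH (5 genes), the TFII-I family (3 genes) or TFIIIA (1 gene) was bound. Among all protein-coding genes the share with at least 1 RFX was 10.1%.

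**Figure D1:**
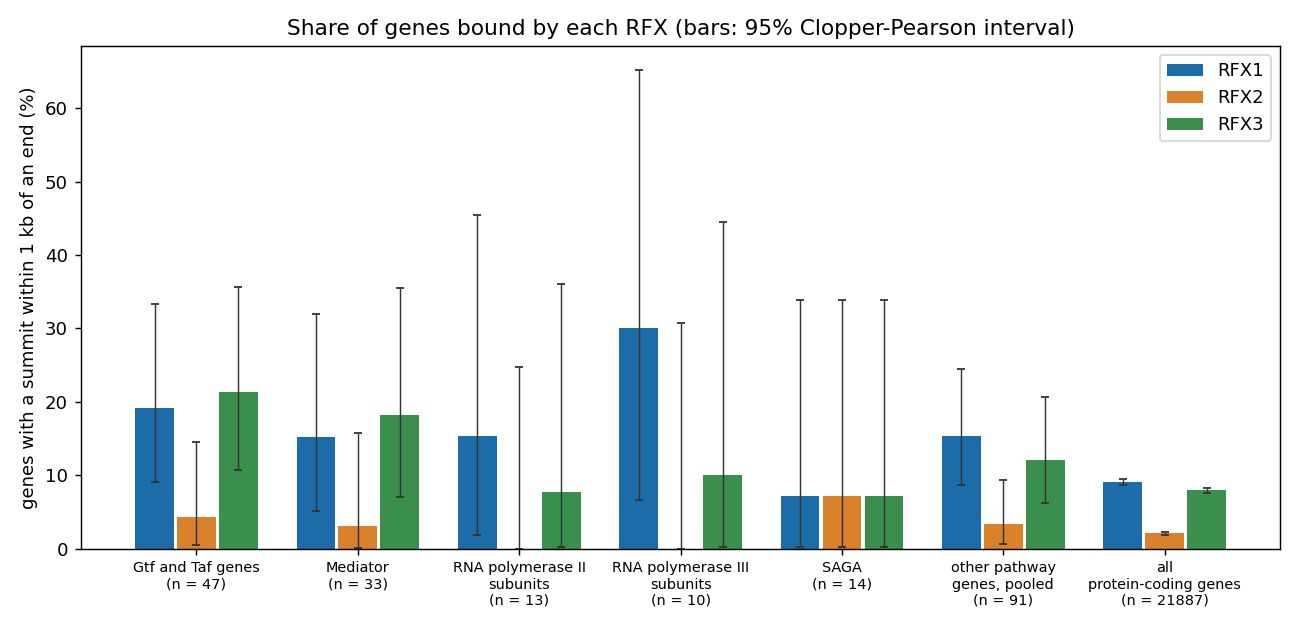
Share of genes with an RFX1, RFX2 or RFX3 summit within 1 kb of a gene end, in percent, for the Gtf and Taf genes, 4 lists of the same pathway, the pooled pathway lists and all protein-coding genes; bars carry 95% Clopper-Pearson intervals that cover the counting of genes alone. The Gtf and Taf genes stood at 19.1%, 4.26% and 21.3%, against 9.05%, 2.08% and 7.94% of all genes, with wide intervals for the short lists.

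The sequences of 7 promoter windows are shown because an RFX summit lay inside each of them; the windows of D430042O09Rik and Ddx31 read the Gtf3c1 and Gtf3c4 sites on the opposite strand and are not repeated. They come from RefSeq on GRCm38.p6, run from 250 bases before to 50 bases after a gene's start, and are printed 5′ to 3′ on the gene's strand, with positions counted from 1 at the 5′ end. Capitals mark letters of the X-box type: a single arm, GTTNCC on either strand, or a looser pair of arms, GTNNCC followed by GNNAC with 1 to 4 bases between them, on either strand. The looser pair was chosen after the windows had been read. An arm and a pair can overlap and then share their capitals. Not printed either are a second Rpf2 window over the Gtf3c6 site and the Tmem179b window, which held the Taf6l summit but no arm or pair.
Gtf3c1 (chr7:125707639-125707938, minus strand): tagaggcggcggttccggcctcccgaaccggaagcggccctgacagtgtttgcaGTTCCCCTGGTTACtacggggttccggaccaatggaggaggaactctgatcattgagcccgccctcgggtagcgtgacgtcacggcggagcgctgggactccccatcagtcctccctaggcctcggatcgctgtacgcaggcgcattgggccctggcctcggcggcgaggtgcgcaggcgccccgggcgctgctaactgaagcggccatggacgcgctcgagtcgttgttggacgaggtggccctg
Gtf3c4 (chr2:28840311-28840610, minus strand): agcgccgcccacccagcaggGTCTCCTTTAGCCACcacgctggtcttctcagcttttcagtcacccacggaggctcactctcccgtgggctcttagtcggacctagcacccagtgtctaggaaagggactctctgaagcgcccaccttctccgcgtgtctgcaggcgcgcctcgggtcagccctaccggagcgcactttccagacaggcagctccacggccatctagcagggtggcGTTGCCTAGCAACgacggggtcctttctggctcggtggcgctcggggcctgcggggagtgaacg
Rpf2, the neighbour of Gtf3c6 (chr10:40246990-40247289, minus strand): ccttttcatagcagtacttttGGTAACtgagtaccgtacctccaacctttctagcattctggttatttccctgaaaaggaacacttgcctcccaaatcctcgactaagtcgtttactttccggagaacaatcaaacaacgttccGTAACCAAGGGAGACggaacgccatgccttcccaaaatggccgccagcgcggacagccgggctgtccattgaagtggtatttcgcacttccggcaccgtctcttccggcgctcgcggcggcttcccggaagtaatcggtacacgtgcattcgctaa
Taf11 (chr17:27909193-27909492, minus strand): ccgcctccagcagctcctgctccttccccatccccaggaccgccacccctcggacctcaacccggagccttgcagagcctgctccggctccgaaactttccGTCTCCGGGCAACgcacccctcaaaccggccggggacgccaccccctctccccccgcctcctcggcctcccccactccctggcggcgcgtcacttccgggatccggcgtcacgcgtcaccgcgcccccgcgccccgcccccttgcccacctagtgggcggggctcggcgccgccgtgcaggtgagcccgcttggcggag
Taf11, second given start (chr17:27907695-27907994, minus strand): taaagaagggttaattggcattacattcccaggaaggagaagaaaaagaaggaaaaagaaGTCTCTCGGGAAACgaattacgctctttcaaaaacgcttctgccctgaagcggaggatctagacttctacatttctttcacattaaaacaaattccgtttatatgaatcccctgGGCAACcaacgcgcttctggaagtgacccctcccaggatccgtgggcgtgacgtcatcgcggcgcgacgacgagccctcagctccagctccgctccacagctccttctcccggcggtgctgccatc
Taf1 (chrX:101532485-101532784, plus strand): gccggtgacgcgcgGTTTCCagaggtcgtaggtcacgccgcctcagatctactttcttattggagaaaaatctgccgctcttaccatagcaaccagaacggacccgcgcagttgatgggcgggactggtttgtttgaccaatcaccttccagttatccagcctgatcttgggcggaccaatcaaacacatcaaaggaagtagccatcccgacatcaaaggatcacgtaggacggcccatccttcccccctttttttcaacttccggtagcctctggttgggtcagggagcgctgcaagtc
Gtf2b (chr3:142764997-142765296, plus strand): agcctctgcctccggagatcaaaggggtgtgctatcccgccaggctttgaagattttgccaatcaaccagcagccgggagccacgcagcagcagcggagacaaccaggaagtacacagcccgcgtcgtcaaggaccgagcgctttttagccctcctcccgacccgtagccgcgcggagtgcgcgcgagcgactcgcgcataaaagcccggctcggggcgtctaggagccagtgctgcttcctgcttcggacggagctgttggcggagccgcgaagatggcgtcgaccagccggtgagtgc

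In the windows of Gtf3c1, Gtf3c4, Rpf2 and Taf11 a looser pair lay at the summits, in Taf11 in the window of the first given start. In Gtf3c1 it spans positions 55 to 68, and the RFX1, RFX2 and RFX3 summits fall at positions 75, 47 and 59. In Gtf3c4 it spans positions 237 to 249, with the RFX1 summit at 210 and the RFX3 summit at 241, while a second pair at positions 21 to 35 lies far from both. In Rpf2 it spans positions 145 to 159, with the RFX1, RFX2 and RFX3 summits at 149, 154 and 168, and an arm apart from them at positions 22 to 27. In Taf11 it spans positions 102 to 114, and both summits fall at 89. In the second Taf11 window a looser pair spans positions 61 to 74, with its centre 104.5 and 100.5 bp from the RFX1 and RFX3 summits at 172 and 168, and an arm spans positions 175 to 180. The only match in the Taf1 window is a single arm at positions 15 to 20, away from the RFX1 and RFX3 summits at 116 and 75. Between those summits the Taf1 window reads cttaccatagcaac, which matches neither an arm nor a pair as defined here. Other forms of the X-box were not searched for, so a window without a match can still hold one. The Gtf2b window holds no match.

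Such letters are common in promoters. An arm was present in 21 of the 43 members with a window in the table (48.8%) and in 49.1% of all protein-coding genes with one. A strict pair, GTTNCC facing GGNAAC with 0 to 4 bases between them, was present in 0 of 43 members and in 0.943% of all such genes. A looser pair was present in 10 members (23.3%), 5 of them among the 10 bound members with a window, and in 15.3% of all such genes. For Gtf3c6 and Taf1a the pair was in a window that held no summit. Counted over every RFX1 summit in every promoter window, 50.6% of 1101 had a looser pair within 50 bp in that window. A summit inside overlapping windows was counted once for each, and no share was computed for stretches without a summit. For RFX3 the share was 52.0% of 980. A match describes the letters of the window and is not a mapped site.

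TFIIIC was bound at 4 of its 6 genes by RFX1 and by RFX3 (66.7% for each, interval 22.3 to 95.7) and at 2 by RFX2. The shares of all genes were 9.05% for RFX1, 7.94% for RFX3 and 2.08% for RFX2. Without genes bound through shared peaks alone, Gtf3c1, Gtf3c4 and Gtf3c6 dropped out and only Gtf3c5 remained of the 6. By that rule 6.89% of all genes had at least 1 RFX. Gtf3c5 itself was not called with a window of 500 bp. Gtf3c1 encodes the subunit that contacts the B box of tRNA genes. It lies on chromosome 7 at 125640954–125707688, and its RFX1, RFX2 and RFX3 summits lay 176, 204 and 192 bp outside its start. The deposited fold enrichment, the peak caller's ratio of ChIP signal to background, was 11.8, 5.89 and 3.63 for these 3 peaks, and the −log10 q, its q-value on a −log10 scale, was 109, 28.2 and 33.4. The RFX1 peak ranked 476 of 7440 by −log10 q, so it was among the stronger ones of its list, while the RFX2 peak ranked 696 of 1250 and the RFX3 peak 2693 of 9318. The same summits lay 9, 37 and 25 bp from the annotated start of D430042O09Rik, which runs in the opposite direction, a gene that the annotation also names Kiaa0556 and whose human counterpart is known from the ciliopathy Joubert syndrome. A second pair of peaks lay deep inside Gtf3c1, with folds of 5.31 for RFX1 and 4.51 for RFX3. Its −log10 q of 14.0 and 13.8 were below those at the start, while its RFX3 fold was higher than the 3.63 there.

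Gtf3c4, which encodes a subunit with histone acetyltransferase activity reported for the human protein, lies on chromosome 2 at 28822299–28840360. Its RFX1 summit lay 41 bp and its RFX3 summit 10 bp outside the start. The folds were 6.69 and 4.49 and the −log10 q 34.9 and 47.5. These summits lay 5 and 36 bp from Ddx31, an RNA helicase gene that starts in the opposite direction, so the same peaks served both genes. Gtf3c5, a subunit of the A-box lobe of TFIIIC, lies on the same chromosome at 28566245–28583279. Its summits lay inside the gene, 547 bp from the start for RFX1 and 529 bp for RFX3, with folds of 7.96 and 3.81 and no other protein-coding gene end within 1 kb.

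Gtf3c6, another subunit of that lobe, was called through its 3′ end. The gene lies on chromosome 10 at 40247701–40257712 on the minus strand, and its RFX1, RFX2 and RFX3 summits were 560, 565 and 579 bp past the 3′ end. They lay more than 10 kb from its start but 102, 97 and 83 bp from Rpf2, a ribosome assembly gene on the same strand, of which a promoter window is printed. The folds were 13.6, 10.9 and 5.43, and the RFX1 peak ranked 351 of 7440. Without Gtf3c6, 3 of the TFIIIC genes were bound near their own start. Gtf3c2 and Gtf3c3, which complete the complex, had no summit closer than 40574 and 139749 bp.

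Among the factors of RNA polymerase II outside TFIID, Gtf2e2 and Gtf2f1 had the highest RFX1 folds of the bound members. Gtf2f1 encodes the large subunit of TFIIF, which escorts the polymerase to the promoter, and lies on chromosome 17 at 57003401–57011394. Its summits lay 199 bp (RFX1) and 185 bp (RFX3) outside the start, with folds of 14.2 and 5.09 and −log10 q of 136 and 69.8. Gtf2e2, the small subunit of TFIIE, lies on chromosome 8 at 33731914–33777173. Its summits lay 99 and 80 bp outside the lower-coordinate end of the gene, whose strand the tables do not give, with folds of 14.9 and 5.56 and −log10 q of 105 and 56.6. The lncRNA gene 1700104B16Rik overlaps that site, and no other protein-coding gene end lay within 1 kb of either gene's summits. RFX2 was called at neither, and its nearest summits lay 183442 and 377977 bp away.

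Gtf2b, the gene of TFIIB, which links promoter and polymerase, had RFX3 alone at 139 bp outside its start. Its fold of 2.7 and −log10 q of 11.03 placed it at rank 7869 of 9318, in the weak end of the list. The partner genes were not bound: the nearest summit of any RFX lay 22348 bp from Gtf2e1 and 4786 bp from Gtf2f2. Within Gtf2f2, RFX1 and RFX3 had a site 25418 and 25507 bp from an end, with folds of 6.73 and 16.1.

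**Figure D2:**
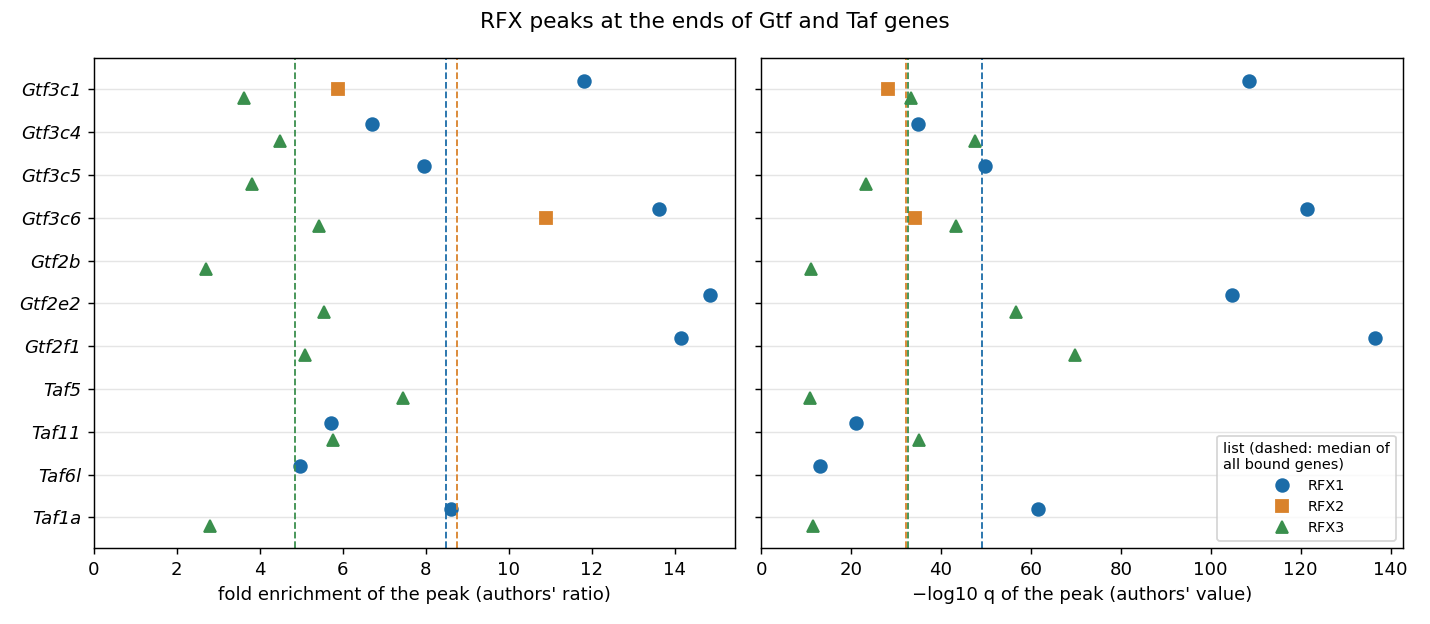
Fold enrichment (left) and −log10 q (right) of each RFX peak at an end of a bound member, both as the authors' peak caller gave them; dashed lines mark the median over all protein-coding genes bound by that RFX. RFX1 values at Gtf2f1, Gtf2e2, Gtf3c6, Gtf3c1 and, narrowly in fold, Taf1a lay to the right of the RFX1 medians of 8.49 and 49.1. Gtf3c5 lay just to the right for −log10 q alone. The lowest −log10 q were the RFX3 values of Taf5 and Gtf2b.

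Of the 18 TFIID TAFs and their paralogs, Taf11 and Taf5 were bound. This is 11.1% (interval 1.38 to 34.7), close to the 10.1% of all protein-coding genes with at least 1 RFX. RFX1 was bound at 5.56% of the 18, against 9.05% of all genes, and RFX3 at 11.1%, against 7.94%. Taf11 encodes a histone-fold subunit that pairs with the product of Taf13, and lies on chromosome 17 at 27901122–27909343. RFX1 and RFX3 summits coincided 61 bp outside its annotated start, with folds of 5.72 and 5.76 and −log10 q of 21.2 and 35.2. The site is shared with Anks1, an ankyrin repeat gene on the opposite strand, whose annotated start lay 100 bp away. A further pair of summits lay inside Taf11, 79 bp (RFX1) and 83 bp (RFX3) from the second start that the promoter table gives, with folds of 8.75 and 3.42. Taf11 thus had RFX1 and RFX3 peaks near each of its given starts.

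Taf5, whose product scaffolds TFIID, had only RFX3, inside the gene at 667 bp from its 3′ end. That peak had a fold of 7.45 but a −log10 q of 10.7 (rank 7987 of 9318), and the 3′ end of the ATP synthase subunit gene Atp5md lay 659 bp from it. Taf13, the partner gene of Taf11, had its nearest summit 6599 bp away. Taf1, which encodes the largest subunit of TFIID and lies on chromosome X at 101527572–101601789, was not called by the gene-end rule, since its summits lay 5028 bp (RFX1) and 4987 bp (RFX3) inside its annotated start. They lay 135 and 176 bp from the start that the promoter table gives for Taf1, with folds of 9.58 and 4.6 and −log10 q of 38.1 and 17.4.

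Of the 4 TAFs of RNA polymerase I, Taf1a alone was bound (25.0%, interval 0.631 to 80.6), against 10.1% of all protein-coding genes. Taf1a lies on chromosome 1 at 183388885–183410201, and its RFX1 and RFX3 summits lay 315 and 316 bp inside the start, with folds of 8.6 and 2.79. The RFX1 peak ranked 1614 of 7440, but the RFX3 peak ranked 7655 of 9318. Taf1b, Taf1c and Taf1d had no summit of any RFX closer than 22674 bp. Of the TAF paralogs in the SAGA coactivator, Taf6l had RFX1 at 84 bp from its 3′ end, with a fold of 4.98 at rank 7021 of 7440. That summit lay 29 bp from the start of Tmem179b, whose promoter window held neither an arm nor a pair. Taf5l, the other such paralog, had no summit within 209882 bp.

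**Figure D3:**
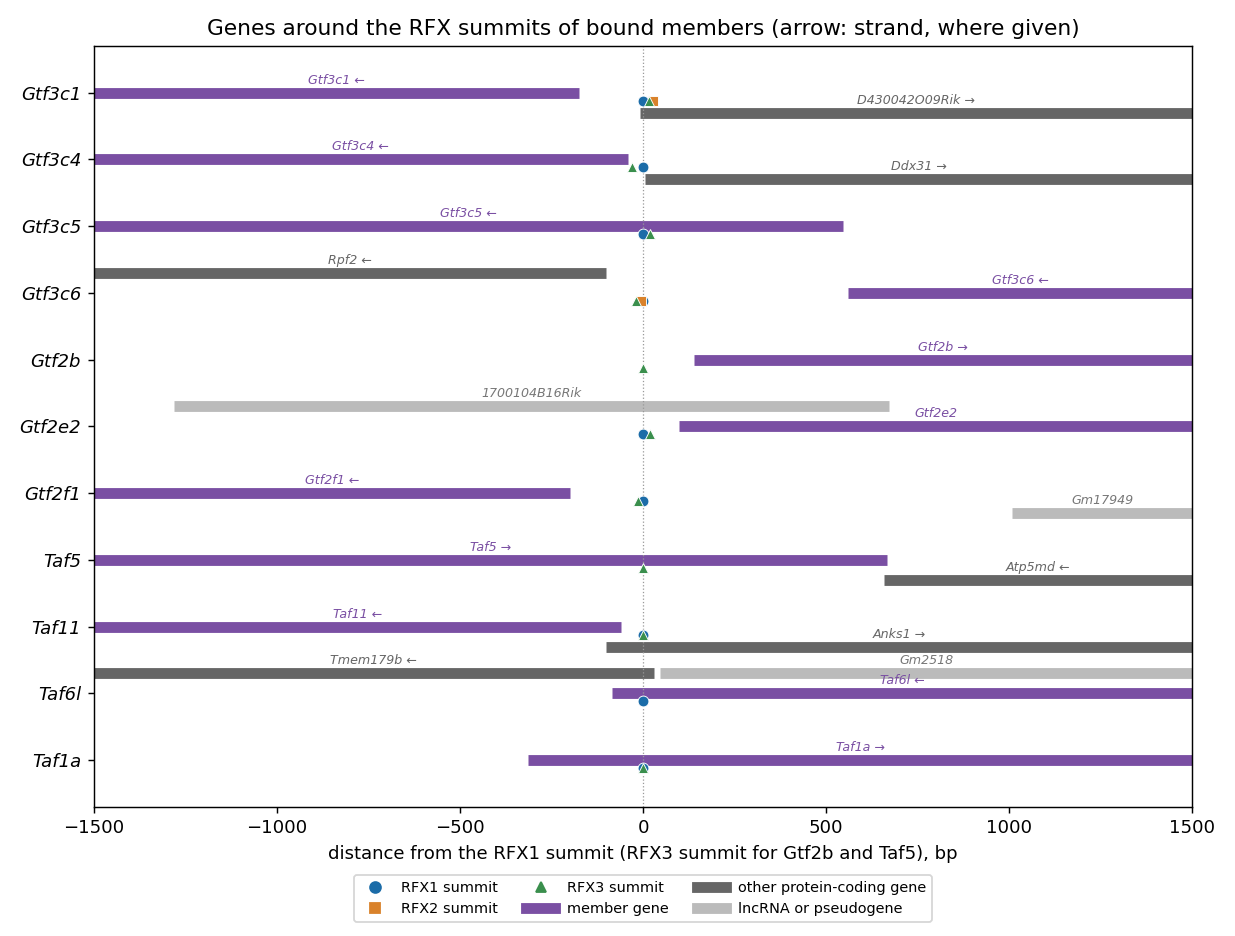
Genes within 1500 bp of the summit at each bound member, drawn to scale against distance in bp from the RFX1 summit (from the RFX3 summit for Gtf2b and Taf5); bars are annotated genes and symbols are summits. At Gtf3c1, Gtf3c4, Gtf3c6, Taf5, Taf11 and Taf6l a second protein-coding gene has an end within 1 kb of the summits.

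Many of these peaks were shared with a neighbouring gene. Of the 11 bound members, 6 (54.5%) were bound only through peaks that also lay within 1 kb of another protein-coding gene's end, against 31.8% of the 2211 genes bound by any RFX. The 5 called through a peak of their own were Gtf3c5, Gtf2b, Gtf2e2, Gtf2f1 and Taf1a. The count leaves out the Taf11 summits near its second given start, which lay 1520 bp (RFX1) and 1516 bp (RFX3) from its nearest annotated end. That RFX1 peak had a −log10 q of 54.3, against 21.2 for the one shared with Anks1. Where the promoter table gives a start, RFX1 summits lay within 1 kb of it in 6 of 8 RFX1 members and RFX3 summits in 7 of 9 RFX3 members. For all bound genes these shares were 86.8% and 86.1%. The exceptions among the members were Gtf3c6 for both factors, Taf6l for RFX1 and Taf5 for RFX3.

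At the 8 members with both factors, RFX1 peaks had the higher fold enrichment in 7, and in Taf11 the values were nearly equal. The median fold was 10.199 for RFX1 and 4.79 for RFX3 at these 8 genes, against 9.69 and 4.86 at all 1507 genes with both. The ratio of RFX1 to RFX3 fold had a median of 2.59 and ran from 0.994 at Taf11 to 3.25 at Gtf3c1, against a median of 1.92 over the 1507 genes, of which 88.4% had the higher fold for RFX1. The members thus showed the pattern of bound genes in general. Fold values come from separate peak calls and are set side by side without a test. The summits of both factors lay 0 to 31 bp apart at the 8 members, with a median of 17 bp, and 13 bp at all 1507 genes.

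The bound members had a median −log10 q of 61.5 in the RFX1 list, 31.2 in the RFX2 list and 34.3 in the RFX3 list. For all bound genes the medians were 49.1, 32.3 and 32.6. RFX3 folds at members had a median of 4.79, close to the 4.84 of all RFX3 genes and below the 7.45 of the whole RFX3 list.

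**Figure D4:**
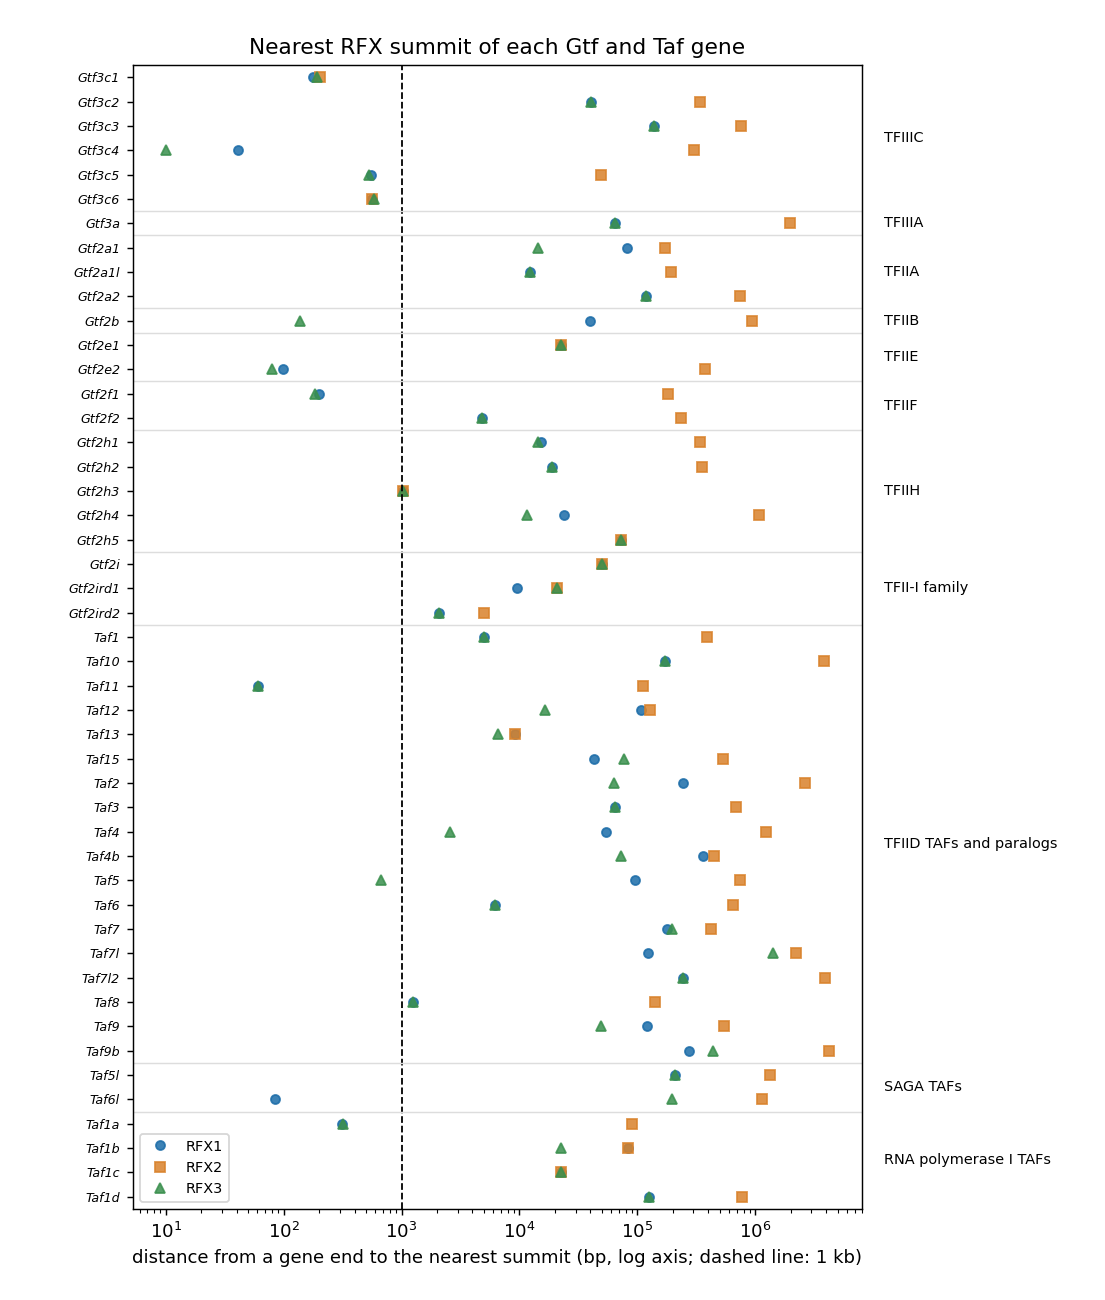
Distance in bp, on a log axis, from an annotated end of each of the 47 members to the nearest RFX1, RFX2 and RFX3 summit, grouped by complex; the dashed line marks 1 kb. Left of the line are 9 members by RFX1 summits, 2 by RFX2 and 10 by RFX3 summits, while Gtf2h3 lies just to its right.

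The 36 members without a call lay at a median of 31.6 kb from the nearest summit of any RFX, against 61.0 kb for all unbound genes. The nearest lay at 1.023 kb and the farthest at 277 kb. There were 6 within 5 kb, Gtf2h3, Taf8, Gtf2ird2, Taf4, Gtf2f2 and Taf1, and 15 beyond 50 kb. Of the 19676 unbound protein-coding genes, 1521 lay within 5 kb and 10764 beyond 50 kb. Gtf2h3, a subunit gene of TFIIH, missed the threshold narrowly, with RFX1, RFX2 and RFX3 summits 1032, 1029 and 1023 bp beyond its 3′ end. Those peaks were stronger than any at a bound member, with folds of 17.1, 11.6 and 11.3 and ranks of 64, 134 and 82, and they lay at the start of Tctn2, a tectonic gene of the ciliary transition zone. Just inside the threshold, the members farthest from their summits were Taf5 at 667 bp and Gtf3c6 at up to 579 bp.

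Sites inside the gene bodies, more than 1 kb from both ends, were present in 8 members for RFX1 (17.0%), against 10.8% of all protein-coding genes, in 2 for RFX2 (4.26%), against 2.3%, and in 10 members for RFX3 (21.3%), against 12.0%. These counts use annotated ends alone, so some of the sites lay near another start in the promoter table. Those of RFX1 and RFX3 lay 135 and 176 bp from such a start in Taf1, and 79 and 83 bp in Taf11. Among all genes such sites were not counted. By −log10 q the strongest was in Gtf2ird1, a TFII-I family gene of chromosome 5, with RFX1, RFX2 and RFX3 folds of 15.6, 13.4 and 8.05 and ranks of 224, 127 and 374. It lay 20747 bp from the nearer end of the gene by the RFX1 summit. By fold, the RFX3 sites inside Gtf2f2, Taf3 and Taf1b were higher than that of Gtf2ird1, at 16.1, 11.1 and 9.41. The related gene Gtf2ird2 held RFX1 and RFX3 summits 607 and 584 bp from the start in the promoter table and a second site of all 3 factors 5012, 4983 and 4985 bp inside its annotated start, with folds of 5.52, 10.1 and 7.69. Their neighbour Gtf2i had no summit within 50263 bp. Taf3, another TFIID subunit gene, had RFX1 and RFX3 deep inside the gene, with folds of 13.5 and 11.1, and Taf8 had both 1240 and 1260 bp from its 3′ end, with folds of 5.94 and 4.2. Taf4 and Taf1b had RFX3 alone inside the gene, with folds of 5.66 and 9.41. Long genes have more room for such sites, and gene length was not taken into account.

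Other genes of the initiation machinery, from lists that like the members were chosen with earlier results of these data known, gave 91 genes outside the members. RFX1 was bound at 14 of them (15.4%), RFX2 at 3 (3.3%) and RFX3 at 11 (12.1%), against 9.05%, 2.08% and 7.94% of all protein-coding genes. The 3 with all factors were Bdp1, Ccnc and Tada2b. Bdp1, a subunit of the TFIIIB that TFIIIC recruits, had summits 56, 50 and 48 bp from one of its annotated ends with RFX1, RFX2 and RFX3 folds of 19.9, 10.8 and 5.62. Ccnc, the cyclin of the Mediator kinase module, had folds of 14.5, 7.29 and 3.37, and Tada2b of SAGA had 14.6, 5.8 and 3.47. The RFX1 fold was the highest of the 3 at each of these genes. Bdp1 was the only bound gene of the 3 in TFIIIB. Tada2b was the only bound gene of the 14 SAGA genes outside the members (7.14%), against 10.1% of all genes with at least 1 RFX.

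Mediator, which bridges activators and RNA polymerase II, had RFX1 at 5 of 33 genes and RFX3 at 6, 15.2% and 18.2% against 9.05% and 7.94% of all genes. The lists that follow are shorter, and their counts rest on 1 or 2 genes each. RNA polymerase II had RFX1 at 2 of 13, Polr2f and Polr2i, and RFX3 at Polr2f. RNA polymerase I had both at 1 of 5, Polr1c, and SNAPc had RFX1 at 1 of 5, Snapc2. These polymerase and SNAPc genes were named after their values were seen. No RFX was bound at the TATA-binding protein family (3 genes) or at the 5 TFIIH genes under other symbols. TFIIH thus had 0 of 10 over both sets, where 10.1% of all protein-coding genes had at least 1 RFX. The interval of each set of 5 reached 52.2%. Gtf2h3 was called for all 3 RFX with a window of 2000 bp, or when any base of a peak was counted in place of its summit.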

How the data were processed

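Peaks of 3 ChIP-seq targets in 6 ChIP samples were read from the authors' deposited lists; 5 input samples entered only through the authors' peak calling. Tools listed in the submitters' processing notes are MACS2 2.0.10.20130520, Bowtie 0.12.7 and CASAVA 1.8.2, with the build GRCm38 and no role for each. The criterion by which a peak counted as reproducible is not stated there. The deposited fold enrichment is a ratio per peak. The deposited −log10 q ranked peaks within a list. The deposited score is the whole part of 10 times the −log10 q in 100% of peaks and was not used further, nor was the −log10 p. The deposited summit offset was added to the peak start to place the summit.

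Gene ends came from the RefSeq table of GRCm38.p6, and starts, strands and 300 bp windows from its promoter table, which matched 43 of 47 members. Sharing with a neighbour was counted over protein-coding gene ends. The call was checked with peaks placed at known distances. Python 3.11.15, pandas 2.3.3, NumPy 2.4.6, SciPy 1.17.1 and matplotlib 3.10.9 were used. Every bound member was named, and genes of other lists where all 3 RFX were bound. The members and lists were chosen with earlier results of these data known. No p-value was computed, since replicates were merged before deposit. The RNA polymerase III subunit genes count in the pooled pathway list and are drawn with the list shares; they are not otherwise reported here.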

Additional observations from a re-analysis of the deposited data

How the results depend on the processing

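Under 9 other settings, the members' share stayed above that of all genes for each RFX, except RFX2 without shared peaks. No paired analysis was possible because each list was deposited with its replicates merged, so no replicate could be left out either. A window of 500 bp lowered RFX2 to 1 member (2.13%, against 1.75% of all genes). A window of 5000 bp raised RFX2 to 4, RFX3 to 16 and any RFX to 17. These are 8.51%, 34.0% and 36.2% of the members, against 3.36%, 13.8% and 17.1% of all genes. The better-scoring 50% of peaks left RFX2 at 1 (2.13%, against 1.13% of all genes), and 3 of the 11 bound members had no call. With 1250 peaks per list, RFX1 had 4 members (8.51%), RFX3 had 2 (4.26%), any RFX 4 (8.51%), and RFX1 with RFX3 2 (4.26%). These compare with 3.1%, 2.07%, 3.64% and 1.61% of all genes. No call was left at 7 of the 11 bound members, among them Gtf3c4 and Gtf3c5. A fold of at least 4 left RFX3 at 6 (12.8%) and RFX1 with RFX3 at 5 (10.6%), against 5.39% and 4.61% of all genes. Without genes bound through shared peaks alone, RFX1 had 4 (8.51%), RFX2 had 0, RFX3 had 5 (10.6%), any RFX 5 (10.6%), and RFX1 with RFX3 4 (8.51%). The shares of all genes were 5.97%, 1.28%, 5.46%, 6.89% and 4.54%. The lead of the members thus narrowed to 8.51% against 5.97% for RFX1. Counting given starts only, among 43 members, left RFX2 at 1, or 2.33%, nearly the 2.28% of all genes with a given start. Taf1 and Gtf2ird2 were gained, Gtf3c6, Taf5 and Taf6l were lost, and Gtf2e2 has no entry. The remaining counts stayed within 1.5 times the main ones. For the X-box letters, a strict pair gave 0 members and the looser pair, added after seeing the data, 10, against 21 for an arm. Apart from these constructions (fewer peaks, other windows), the cause of a change was not tested. Depth is unknown and limits what a missing peak can mean.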
